A study of Mus musculus with 12 samples.

Results

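Complex I, or NADH:ubiquinone oxidoreductase, is the largest enzyme of the mitochondrial respiratory chain and the main entry point for electrons from NADH. The genes described here are its subunits encoded in the nucleus, read in the mouse hypothalamus in 4 groups of a diabetes experiment. They were taken by symbol: every row named Ndufa, Ndufab, Ndufb, Ndufc, Ndufs or Ndufv followed directly by a number, without the assembly factors named Ndufaf and without names ending in -ps. That rule found 41 of the 78334 gene IDs in the count table. Of the 41 genes, 36 encode subunits, and Ndufa4 and Ndufa4l2 carry the name although the first is now placed with cytochrome c oxidase and the second is its paralog. The other 3 are processed pseudogenes, Ndufa11b, Ndufb4c and Ndufs6b. Ndufs6b had 0 counts in every library and Ndufa11b averaged 0.078 CPM (the count scaled to the library total), so 39 of the 41 passed the filter on low counts. Left out by the rule were 2 rows named -ps, one of which RefSeq now names Ndufb1.

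Bulk RNA sequencing of 12 libraries of hypothalamus from male C57BL/6 mice gave 1 table of counts per gene. Control mice (n = 3 libraries) ate standard chow and were gavaged with vehicle. Diabetes mice (n = 4) had 1 injection of streptozotocin, a toxin of pancreatic beta cells, at 70 mg/kg on postnatal day 2, then a high-fat diet with 60% of energy from fat for 8 weeks from 3 weeks of age, and were given vehicle too. Curcumin mice (n = 3) and aged garlic extract mice (n = 2) had the same injection and diet and received 50 mg/kg curcumin, a turmeric polyphenol, or 200 mg/kg extract by gavage each day for 28 days. The labels start this at week 7 of the diet in one place and after 11 weeks in another, so its timing is unresolved. Because control mice had neither streptozotocin nor the high-fat diet, the injection and the diet cannot be told apart. The labels do not say that each library came from a separate mouse, so every p-value rests on the spread among libraries, part of which may be technical.

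Complex I has an L shape. The arm in the matrix holds the N module, which takes electrons from NADH, and the Q module, which hands them to ubiquinone along a chain of iron-sulfur clusters. The arm in the inner membrane pumps protons, and its pumping subunits are encoded by mitochondrial DNA, whereas the catalytic subunits of the matrix arm and the many accessory subunits around both arms come from nuclear genes. Neurons depend heavily on this enzyme, and its loss underlies several inherited brain diseases.

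Library totals ran from 12950017 to 30271706 counts. At the lowest of these depths the libraries would detect 20133 to 22515 genes in the diabetes group, against 25766 to 33157 for control, 20917 to 29126 for curcumin and 33125 to 34719 for garlic. The library labelled curcumin replicate 2 lacked the signature of the tissue: the 14 hypothalamic neuron markers summed to 60.4 CPM there against 673 to 5083 in the other libraries, with Nkx2-1 at 0.0497 CPM against 28.6 to 56.8. It also had the highest sums of the 12 libraries for markers of thalamus (394 CPM), oligodendrocytes (9994), neurons in general (3998) and endothelium (313). These markers go against the labelled tissue, and whether another region was sampled or libraries were exchanged was not tested. Diabetes replicate 4 held 853 CPM of the 6 pituitary markers against 0.774 to 15.2 elsewhere. Control replicate 3 held 329 CPM of the 5 astrocyte markers against 943.5 to 1387 elsewhere. The hypothalamic sum was 2444 to 5083 CPM in diabetes against 1595 to 2252 in control. Of its 14 genes, however, only Pomc and Cartpt were separate and higher (5.78% of all genes were), and 11 overlapped. Agrp was separate and lower but scarce everywhere, at 0.338, 2.05 and 0.317 CPM in control and 0 in all 4 diabetes libraries. It was also at 0 in curcumin replicate 1 and garlic replicate 2. The 6 general neuron markers summed to 2330 to 2695 CPM in diabetes, below the 2767 to 2957 of control. The 5 thalamic markers summed to 40.8 to 90.3 CPM in diabetes and 102 to 249.7 in control, and the 5 blood markers to 264 to 1755 and 87.5 to 196. Their part in the results below was not tested. In bulk tissue, fewer cells of a type and less RNA per cell cannot be told apart.

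The members were expressed at very different levels in control hypothalamus. Per kilobase of annotated transcript, the highest control levels among subunits were those of Ndufa6 (180 CPM per kilobase), a protein that binds the mitochondrial acyl carrier, Ndufb10 (178) and Ndufa11 (169). The lowest were Ndufb4 (6.54 CPM per kilobase), Ndufab1 (9.502), the acyl carrier protein itself, and Ndufb2 (22.6). The last 2 of these have annotated lengths of 2448 and 2413 bases, against a median of 866 over the 36 subunits, which lowers a level per kilobase. Ndufb4 averaged 6.72 CPM over all libraries and the pseudogene Ndufb4c averaged 47.3 CPM. How reads that map to both were counted is not given in the sources used here, so neither value is certain.

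The first question was whether the subunits differed between diabetes and control. All 39 tested members had a log2 fold change above 0, against 45.9% of the 25562 genes tested, with a median of 0.86 and a range of 0.009 to 1.60, whereas the median over all genes was -0.067. In 26 members every diabetes library stood above every control library, against 5.78% of all genes. None passed the threshold of an adjusted p of 0.05 in edgeR's quasi-likelihood test (0 of 39, against 0.0156% of all genes called higher), and the smallest adjusted p was 0.0791. At an unadjusted p under 0.05, 25 members were higher and 0 lower, against 4.79% of all genes higher. Some other tools and settings placed members past the threshold. DESeq2 called 12 higher (1.89% of all genes) and limma-voom with library weights 22 (2.83%). In edgeR 15 were called higher without the low-count filter (0.715%) and 14 with only these groups in the fit (1.39%). With a covariate for the number of detected genes, which did not overlap between these groups, the median was 1.75 and 0 members passed. Nor did any member pass with RLE scaling, a replicate block or any single library left out.

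Ndufs8, a core subunit of the Q module that carries iron-sulfur clusters, stood at 77.0, 93.4 and 61.8 CPM in control replicates 1 to 3. In diabetes replicates 1 to 4 it stood at 176, 157, 259 and 256 CPM. The groups did not overlap, and diabetes replicates 3 and 4 were the higher pair. The means were 212 ± 52.9 CPM (SD, n = 4) and 77.4 ± 15.8 (n = 3), a log2 fold change of 1.45 ± 0.28 (SE, edgeR adjusted p = 0.0791). Ndufs7, its neighbour in the Q module and part of the ubiquinone pocket, stood at 131, 145 and 149 CPM in control and at 257, 239, 362 and 342 CPM in diabetes. Here too the groups were separate, with a log2 fold change of 1.08 ± 0.29 (edgeR adjusted p = 0.176). DESeq2 and limma-voom called both genes higher.

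Other core subunits had smaller differences. Ndufv2, an iron-sulfur subunit of the N module, had a log2 fold change of 0.78 ± 0.28 with separate groups. Ndufv1, where NADH binds and gives its electrons to flavin, stood at 168, 174 and 150.1 CPM in control and 216, 180.4, 311 and 273 CPM in diabetes, a log2 fold change of 0.58 ± 0.29. Ndufs3, a structural core subunit of the matrix arm, overlapped between groups because diabetes replicate 2 (33.5 CPM) lay below all 3 control libraries (38.9 to 48.2 CPM); its log2 fold change was 0.53 ± 0.35. Adjusted p values from edgeR ran from 0.310 to 0.615 over these 3 genes.

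Ndufs1, the largest iron-sulfur subunit of the N module, differed least of the 7 core genes. It was at 114, 118 and 85.2 CPM in control and at 128, 102, 109.6 and 86.6 CPM in diabetes. The values were interleaved, and the log2 fold change was 0.01 ± 0.27 (edgeR adjusted p = 0.999). Its sign turned with several other settings, among them limma-voom (-0.086).

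**Figure D1:**
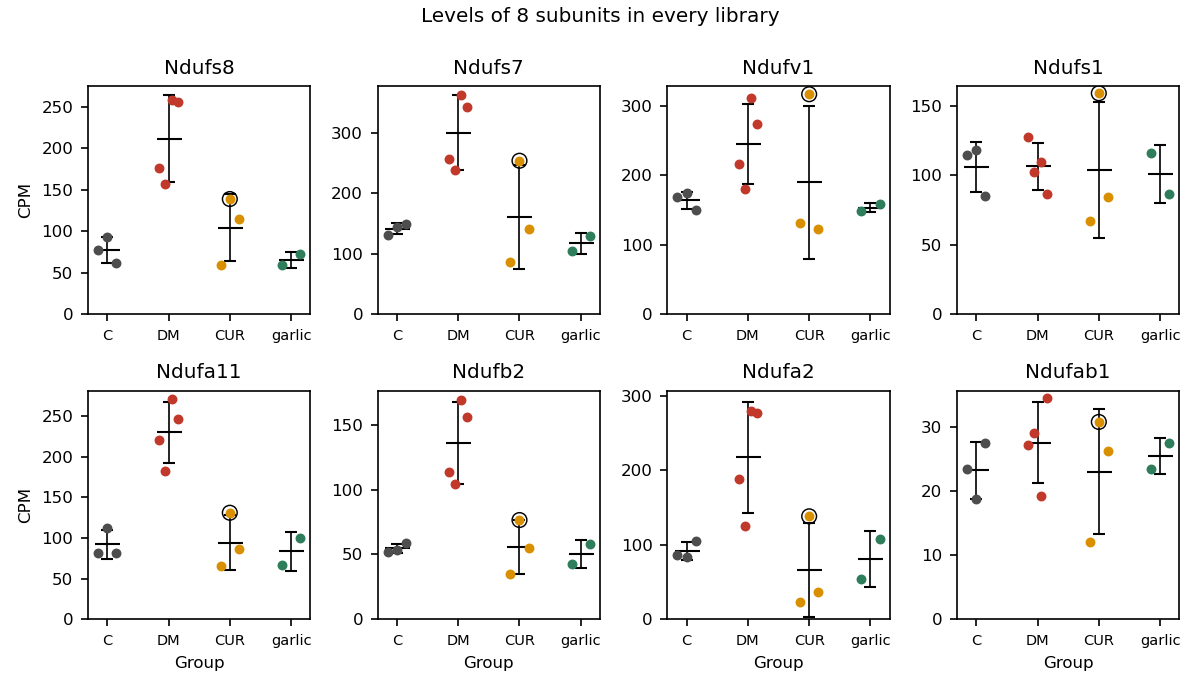
Level (CPM) of 8 subunits in each library, by group (C control, DM diabetes, CUR curcumin, garlic aged garlic extract). Points are libraries, the long bar is the mean and the whiskers are 1 SD; the ringed point is curcumin replicate 2. Ndufs8 lies at 157 to 259 CPM in diabetes and 61.8 to 93.4 in control, and Ndufs1 overlaps between those groups.

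Among accessory subunits, Ndufa11, a membrane protein of the proximal arm, and Ndufb2, a small protein of the distal arm, stood highest. Ndufa11 was at 81.7, 113 and 81.9 CPM in control and at 221, 182, 271 and 246 CPM in diabetes (log2 fold change 1.32 ± 0.26, edgeR adjusted p = 0.0791). Ndufb2 was at 52.2, 53.1 and 58.6 CPM in control and at 114, 104.5, 169.8 and 156 CPM in diabetes (1.32 ± 0.27, adjusted p = 0.0970). In both genes the lowest diabetes library exceeded the highest control library by a wide margin. Ndufa13, also known as GRIM-19, had a log2 fold change of 1.31 ± 0.32, and Ndufb7, a cysteine-rich protein on the outer face of the membrane arm, 1.27 ± 0.31. The pseudogene Ndufb4c had the highest fold change of all members, 1.60 ± 0.39.

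At the other end stood subunits whose groups overlapped. The log2 fold change was 0.18 ± 0.47 for Ndufb4, 0.25 ± 0.31 for Ndufab1, 0.40 ± 0.29 for Ndufb3 and 0.43 ± 0.45 for Ndufa1, a small protein of the proximal arm. Ndufa10, a relative of nucleoside kinases, had a log2 fold change of 0.38 ± 0.27, but its groups did not overlap, at 118 to 146 CPM in control and 153 to 186 in diabetes. Ndufb4 lay on either side of 0 depending on the setting, from -0.031 without control replicate 1 to 0.54 without control replicate 3.

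By module, the median log2 fold change was 0.79 over the 10 N module genes, 0.63 over the 6 Q module genes, 0.86 over the 9 of the proximal membrane arm and 0.98 over the 11 of the distal membrane arm. Modules were not tested against each other. Groups did not overlap for 7 of 10, 4 of 6, 5 of 9 and 8 of 11 of these genes, against 5.78% of all genes. The medians were 0.63 over the 7 core subunits and 0.87 over the 29 accessory ones. Ndufs8 had the highest fold change of the 36 subunits and Ndufs1 the lowest, and both are core subunits of the matrix arm.

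**Figure D2:**
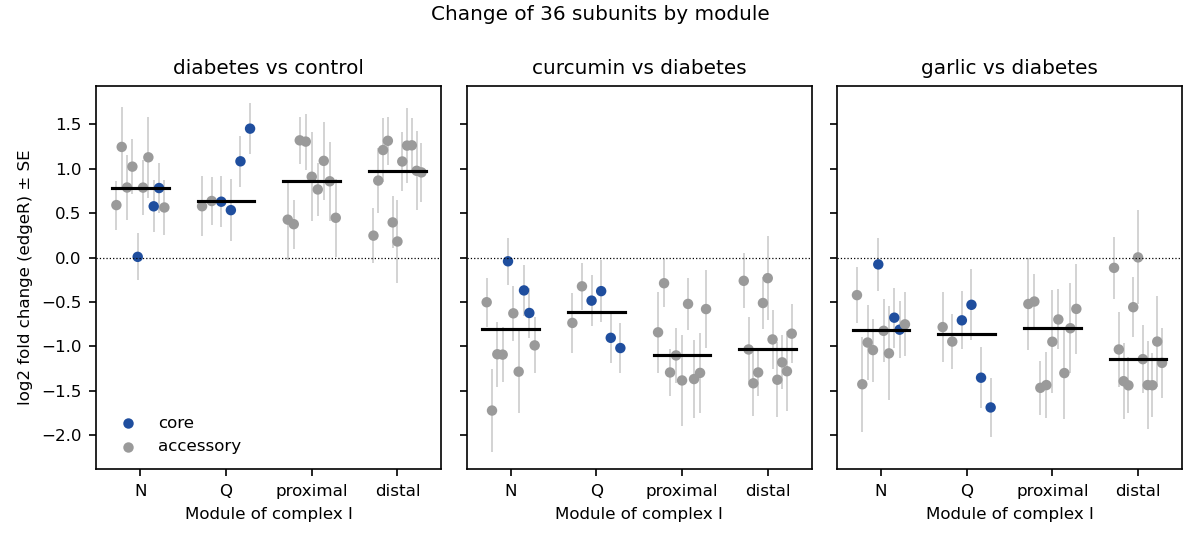
Log2 fold change (edgeR, with whiskers of 1 SE) of the 36 subunits in 3 comparisons, by module on the horizontal axis. Blue points are core subunits, grey points accessory subunits and black bars module medians, which run from 0.63 to 0.98 for diabetes against control.

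The promoters of the 5 subunits with the highest fold changes for diabetes against control (Ndufs8, Ndufa11, Ndufb2, Ndufa13 and Ndufb7) are shown. Each of these genes was also separate and higher in diabetes than in both treated groups. Of all genes, 4.19% were so against curcumin and 7.52% against garlic. That trait rests on the same diabetes libraries as the fold changes, and Ndufa7, Ndufb11 and Ndufc1 shared it. Sequences are RefSeq's for GRCm38.p6, the 250 bases before the annotated start, read on the strand of the gene; the counts were made on another build, GRCm39. Of the 36 subunits, 32 had an entry. Ndufs8 lies at chr19:3912775-3913024, Ndufa11 at chr17:56717512-56717761, Ndufb2 at chr6:39592315-39592564, Ndufa13 at chr8:69902021-69902270 and Ndufb7 at chr8:83566508-83566757. Ndufs8 and Ndufa13 are read from the minus strand and the other 3 from the plus strand. Capitals mark the letters of a motif named below.
Ndufs8: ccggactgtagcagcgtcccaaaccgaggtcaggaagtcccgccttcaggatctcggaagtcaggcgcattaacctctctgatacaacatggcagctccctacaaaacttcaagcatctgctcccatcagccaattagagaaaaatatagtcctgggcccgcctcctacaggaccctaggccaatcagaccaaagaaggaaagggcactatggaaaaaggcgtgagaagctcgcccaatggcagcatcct
Ndufa11: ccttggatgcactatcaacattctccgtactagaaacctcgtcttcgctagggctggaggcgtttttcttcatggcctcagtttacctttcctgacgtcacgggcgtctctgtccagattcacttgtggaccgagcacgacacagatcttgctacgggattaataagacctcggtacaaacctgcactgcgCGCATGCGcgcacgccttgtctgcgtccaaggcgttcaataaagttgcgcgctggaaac
Ndufb2: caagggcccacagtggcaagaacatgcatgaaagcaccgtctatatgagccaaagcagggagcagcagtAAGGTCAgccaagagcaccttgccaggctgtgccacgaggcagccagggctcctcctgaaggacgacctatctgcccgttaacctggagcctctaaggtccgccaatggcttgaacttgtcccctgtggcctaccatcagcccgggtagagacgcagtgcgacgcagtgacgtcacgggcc
Ndufa13: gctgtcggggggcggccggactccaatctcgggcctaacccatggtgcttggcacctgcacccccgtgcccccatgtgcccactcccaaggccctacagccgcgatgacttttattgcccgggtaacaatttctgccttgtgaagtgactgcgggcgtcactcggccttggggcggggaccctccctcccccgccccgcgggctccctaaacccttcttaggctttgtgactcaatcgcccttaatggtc
Ndufb7: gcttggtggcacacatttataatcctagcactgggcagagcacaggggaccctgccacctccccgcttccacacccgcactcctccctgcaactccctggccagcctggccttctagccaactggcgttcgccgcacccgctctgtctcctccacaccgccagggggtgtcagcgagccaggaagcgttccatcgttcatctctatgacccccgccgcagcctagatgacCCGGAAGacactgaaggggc

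Motifs of 4 factors known to act on respiratory genes were searched on both strands in the window from 250 bases before to 50 bases after the start. Ndufa11 held the NRF1 letters GCATGCG on both strands, at bases -59 and -58, in an overlapping pair. Ndufb2 held AAGGTCA, a site for estrogen-related receptors, at base -181, and Ndufb7 held CCGGAAG, a site for ETS factors, at base -20. Ndufs8 had none of the 4 motifs before its start and CCGGAAG on the other strand at base 15 after it, and Ndufa13 had none in the window. GCATGCG was in 3 of the 32 subunit windows (9.38%) and in 3.64% of all 27025 windows, AAGGTCA in 3 (9.38% against 4.66%) and CCGGAAG in 4 (12.5% against 9.08%). GATGGCG, read by YY1, was in 6 (18.8% against 3.59%), of which 5 lay past the start, where its letters can hold the start codon. The upstream 250 bases had a median GC content of 57.8% over the subunits and 52.0% over all promoters. A match is a description of the letters and not evidence of binding.

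The treated groups were compared with the diabetes group, so both comparisons share the same 4 diabetes libraries with each other and with the comparison against control. For curcumin, all 39 members had a log2 fold change below 0, against 46.7% of all genes, with a median of -0.96 and a range of -1.72 to -0.04 (median of all genes 0.066). None passed in edgeR (0 of 39, against 0.0861% of all genes called lower); the smallest adjusted p values were 0.0541 for Ndufa11 and 0.0548 for Ndufb2. At an unadjusted p under 0.05, 24 were lower and 0 higher, against 6.71% of all genes lower. DESeq2 called 17 lower (2.66% of all genes) and limma-voom 6 (0.45%). In edgeR 22 passed without the low-count filter (1.3%), 16 with the covariate for detected genes (1.28%) and 2 with RLE scaling (0.434%). Only 8 members were separate between the groups, against 4.19% of all genes, and for the others at least 1 curcumin library reached the diabetes range.

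The 3 curcumin libraries were far apart. The summed level of all members was 1682 CPM in replicate 1, 5177 in replicate 2 and 2663 in replicate 3, against 4324 to 7103 in diabetes and 3093 to 3273 in control. Curcumin replicate 1 was the lowest of the 12 libraries for 34 of the 39 members, whereas the summed level of curcumin replicate 2, the library that lacked hypothalamic markers, lay inside the diabetes range. Without curcumin replicate 2 edgeR called 28 members lower, against 4.82% of all genes, with a median log2 fold change of -1.47. With diabetes replicate 4 also left out it called 24 (3.3% of all genes), with a median of -1.43. Without diabetes replicate 2 it called 2 (0.217%), and without curcumin replicate 1 it called 0, with a median of -0.60. Leaving out curcumin replicate 2 kept replicates 1 and 3, in which genes under 1000 bases as a whole stood low (median deviations of -0.91 and -0.40). The correction for length described below was not run without that library.

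Ndufa2, a thioredoxin-like subunit of the N module, had the furthest fold change with curcumin. It stood at 189, 124, 279.5 and 277 CPM in diabetes replicates 1 to 4 and at 22.9, 138 and 36.6 CPM in curcumin replicates 1 to 3. Replicates 1 and 3 lay below every diabetes library and replicate 2 within them, with a log2 fold change of -1.72 ± 0.46 (edgeR adjusted p = 0.106). Without the low-count filter its standard error was 0.26. Ndufb11, a membrane subunit of the distal arm, stood at 143, 140.2, 198 and 245 CPM in diabetes and 28.4, 127 and 48.9 CPM in curcumin (-1.42 ± 0.37, adjusted p = 0.0957). Without curcumin replicate 2 the fold changes of these genes were -2.83 (edgeR adjusted p = 0.000486) and -2.19 (0.000489), and without curcumin replicate 1 they were -1.32 and -1.05, with neither past the threshold. Ndufa11 and Ndufb2 were separate from diabetes in all 3 curcumin libraries, at 64.9, 131 and 85.8 CPM and at 34.7, 76.6 and 55.1 CPM. Their fold changes were both -1.29, and both passed under RLE scaling, DESeq2 and limma-voom.

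The pseudogene Ndufb4c had a log2 fold change of -1.52 ± 0.39. Next came Ndufa3 at -1.38 ± 0.51, Ndufb6 at -1.38 ± 0.42 and Ndufc1 at -1.37 ± 0.44, small membrane subunits, of which Ndufc1 alone was separate between the groups. Without curcumin replicate 2 these 3 subunits were at -2.70, -2.22 and -1.899, all past the threshold in edgeR (adjusted p = 0.0011, 0.00193 and 0.0195), and without curcumin replicate 1 at -0.90, -0.96 and -0.88, none past it. Among core subunits, Ndufs8 was at -1.02 ± 0.28 with separate groups and Ndufs7 at -0.90 ± 0.29 with overlapping ones. Ndufv2 (-0.62), Ndufs3 (-0.38), Ndufv1 (-0.37) and Ndufs1 (-0.041) had smaller differences, with adjusted p values of 0.263 to 0.967. Without curcumin replicate 2 Ndufs8 (-1.24), Ndufs7 (-1.36), Ndufv2 (-0.93) and Ndufv1 (-0.915) passed in edgeR (adjusted p = 0.0151, 0.00398, 0.0383 and 0.0184), while Ndufs3 (-0.97) and Ndufs1 (-0.46) did not. Without curcumin replicate 1 none of these 6 passed, and Ndufs1 was at 0.19. Other members near 0 were Ndufb4 (-0.23), Ndufab1 (-0.26), Ndufa10 (-0.29) and Ndufa9 (-0.32), which binds a nucleotide cofactor in the Q module.

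For garlic, 38 of 39 members had a log2 fold change below 0 against diabetes, where 46.1% of all genes did, with a median of -0.95 and a range of -2.09 to 0.003 (median of all genes 0.068). In 27 members both garlic libraries lay below all 4 diabetes libraries, against 7.52% of all genes. None passed in edgeR (0 of 39, against 0% of all genes called lower), and the smallest adjusted p was 0.115. At an unadjusted p under 0.05, 21 were lower and 0 higher, against 4.03% of all genes lower. DESeq2 called 13 lower (1.58% of all genes), limma-voom 15 (1.4%) and edgeR without the low-count filter 14 (0.552%). With the covariate for detected genes the median was -2.39 and 0 passed. Nor did any member pass with RLE scaling, a replicate block, only these groups in the fit or any single diabetes library left out. With 2 garlic libraries, each one weighs heavily: the median was -1.33 without garlic replicate 2 and -0.65 without garlic replicate 1.

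Ndufs8 stood at 59.1 and 72.4 CPM in the garlic libraries, below its 157 to 259 CPM in diabetes, a log2 fold change of -1.69 ± 0.34 (edgeR adjusted p = 0.115). Ndufs7 stood at 105 and 129.7 CPM, also below every diabetes library (-1.35 ± 0.34, adjusted p = 0.202). Ndufa11 at 66.2 and 100.5 CPM (-1.47 ± 0.31) and Ndufb2 at 42.4 and 58.0 CPM (-1.44 ± 0.32) were separate from diabetes as well. So were Ndufb7 (-1.44 ± 0.36), Ndufa13 (-1.44 ± 0.37) and the pseudogene Ndufb4c (-2.09 ± 0.47). Ndufb4c, Ndufs8, Ndufa11, Ndufb2, Ndufb7 and Ndufa13 were the 6 members furthest from 0.

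Other core subunits had log2 fold changes of -0.81 for Ndufv2, -0.68 for Ndufv1, -0.53 for Ndufs3 and -0.076 for Ndufs1. The first 2 were separate between garlic and diabetes. Least different were Ndufb4 (0.003), Ndufab1 (-0.12), Ndufa12 (-0.42), Ndufa4l2 (-0.435) and Ndufa10 (-0.49). Single libraries set part of this order: Ndufa12 was at -0.079 without garlic replicate 1 and -0.89 without garlic replicate 2, and Ndufa4l2 at 0.01 and -1.11. Ndufa4l2, the paralog known to rise in low oxygen, was scarce, at 0 to 6.20 CPM over the 12 libraries.

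**Figure D3:**
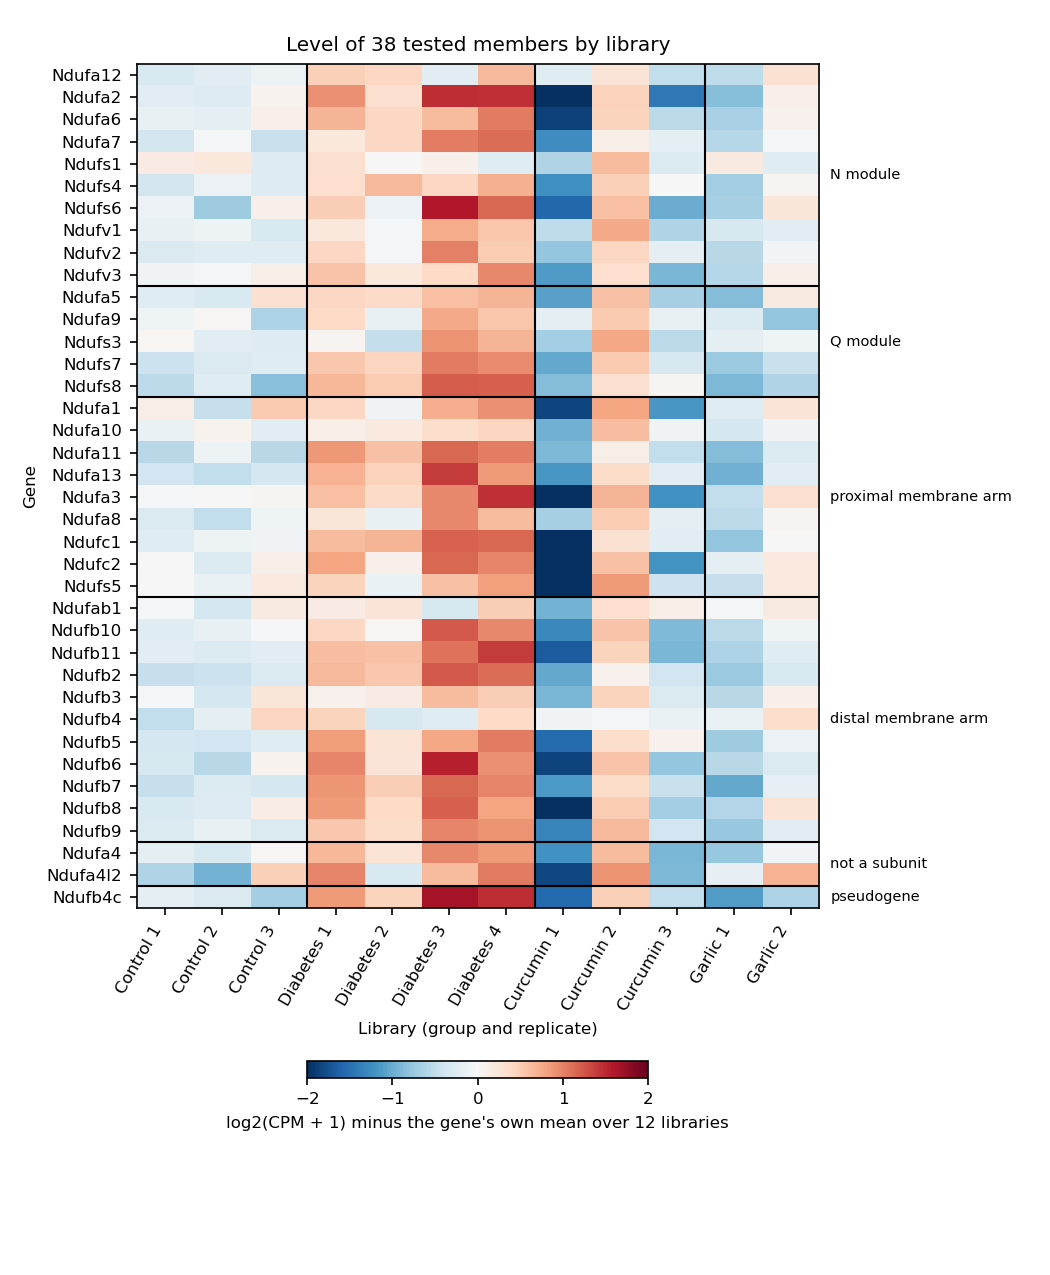
Level of 38 of the 39 tested members in each of the 12 libraries, as log2(CPM + 1) minus the gene's own mean, with red above and blue below that mean. Rows are grouped by module and columns by group. Diabetes replicates 3 and 4 are the reddest columns, curcumin replicate 1 the bluest, and curcumin replicate 2 resembles diabetes in colour.

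The level of the members in each library was summarised over the 39 tested genes. The median deviation of log2 CPM from each gene's own mean was -0.23, -0.24 and -0.10 in control and 0.54, 0.27, 0.97 and 0.92 in diabetes. It was -1.17, 0.51 and -0.45 in curcumin and -0.57 and -0.049 in garlic. The members were split in some libraries, with 16 above their own mean in control replicate 3, 18 in garlic replicate 2 and 28 in diabetes replicate 2. In curcumin replicate 1 none was above its mean and in diabetes replicate 1 all 39 were. Diabetes replicate 3 was the highest library for 22 members and diabetes replicate 4 for 12, and curcumin replicate 2 was the highest for 4. The within-group SD of this median was 0.078 in control, 0.33 in diabetes, 0.85 in curcumin and 0.37 in garlic.

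The treated groups were also set against control. For curcumin against control the median log2 fold change was -0.013, with 19 members above 0 and 20 below (49.8% and 50% of all genes). No member passed in edgeR, DESeq2 or limma-voom (0%, 0.0199% and 0% of all genes called lower). By edgeR 0 had an unadjusted p under 0.05, against 1.06% of all genes higher and 1.28% lower. No member was separate between these groups, against 2.82% of all genes separate and higher and 5.84% separate and lower. The range ran from -0.475 for Ndufa2 and -0.472 for Ndufa3 to 0.31 for Ndufa9 and 0.435 for Ndufs8. The other core subunits lay between -0.033 (Ndufs1) and 0.21 (Ndufv1). Without curcumin replicate 2 the median was -0.51 and edgeR called 1 member, Ndufc2, lower (log2 fold change -1.65, adjusted p = 0.0467, 0.193% of all genes), which was named after its values were seen. Without curcumin replicate 1 the median was 0.27.

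For garlic against control the median was -0.12, with 30 of 39 members below 0 and 9 above (50.5% and 49.3% of all genes). The side of 0 rested on 1 library, since the median was 0.13 without garlic replicate 1 and -0.39 without garlic replicate 2. No member passed by edgeR, DESeq2 or limma-voom, and 0 had an unadjusted p under 0.05 in edgeR (0.0782% of all genes higher and 0.0313% lower). No member was separate and higher (6.65% of all genes), and 2 were separate and lower, Ndufs7 among them, against 6.11% of all genes. Ndufs7 stood at 105 and 129.7 CPM with garlic and 131 to 149 in control, a log2 fold change of -0.27 ± 0.34. The extremes were Ndufa4l2 at 0.755 and Ndufb4c at -0.49.

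Curcumin and garlic, unrelated substances given at different doses, are set side by side only as groups. The median log2 fold change between them was 0.047, with 23 members above 0 and 16 below (50.5% and 49.3% of all genes). No member passed by edgeR, DESeq2 (0.0278% of all genes called lower) or limma-voom, and 0 had an unadjusted p under 0.05 in edgeR (0.462% of all genes higher and 1.13% lower). Ndufa9 alone was separate, higher in the curcumin libraries (72.4, 119.9 and 74.9 CPM) than in the garlic libraries (68.0 and 47.7 CPM), against 4.21% of all genes (9.91% separate and lower), with a log2 fold change of 0.62 ± 0.32. Without curcumin replicate 2 the median was -0.44. A p that misses the threshold does not show that the groups were alike.

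Genes that work with these subunits gave a mixed picture. The 7 complex I subunits of mitochondrial DNA had a median log2 fold change of -0.52 in diabetes against control, and 6 of 7 were below 0. The median ran from -0.68 to -0.26 under the other settings except with a covariate for detected genes, where it was 0.34; the value nearest 0 within that range was without control replicate 3. None passed in edgeR, and 2 were lower at an unadjusted p under 0.05 (7.48% of all genes). Limma-voom called 2 lower (1.77% of all genes) and edgeR without the low-count filter 1 (0.217%). mt-Nd5, which encodes a proton-pumping subunit, stood at 3102, 2752 and 3525 CPM in control and at 1668, 2733, 1408 and 2107 CPM in diabetes. All 4 diabetes values were lower, with a log2 fold change of -0.66 ± 0.25 (adjusted p = 0.323). mt-Nd4l had a log2 fold change of -0.92 ± 0.31 with overlapping groups, and mt-Nd3 alone was above 0, at 0.34 ± 0.37. With garlic against diabetes the median of these 7 genes was 0.59 (-0.70 with that covariate), and with curcumin it was 0.066. The curcumin value changed sign with the setting, to -0.20 without curcumin replicate 2, -0.096 without diabetes replicate 3, -0.19 without both doubted libraries (curcumin replicate 2 and diabetes replicate 4) and -0.255 with the covariate.

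Assembly factors, which build the enzyme without staying in it, had smaller median differences. In diabetes against control 19 of the list were tested, with a median of 0.225, from 0.125 to 0.81 under the other settings. Of these, 0 passed in edgeR (0.0156% of all genes called higher), 0 by DESeq2 (1.89%) and 2, both higher, by limma-voom (2.83%). At an unadjusted p under 0.05, 3 were higher in diabetes, Ndufaf8 (37.6 ± 13.04 against 16.2 ± 0.778 CPM, log2 fold change 1.21), Ndufaf3 (0.74) and Dmac1 (0.72), and 1 was lower, Foxred1 (-0.53), against 4.79% of all genes higher and 7.48% lower. Nuclear subunits of complexes II to V had a median log2 fold change of 0.71 over 44 genes tested, with 0 past the threshold in edgeR, 19 higher at an unadjusted p under 0.05 (4.79% of all genes) and 23 separate and higher (5.78%). DESeq2 called 12 of these genes higher (1.89% of all genes) and limma-voom 18 (2.83%). In edgeR 14 were called higher without the low-count filter (0.715%) and 14 with only these groups in the fit (1.39%). With the correction for length described below it was 10 (0.845%). Their medians were -0.77 with curcumin and -0.845 with garlic against diabetes, and 0 passed in edgeR. DESeq2 called 10 lower with curcumin and 11 with garlic (2.66% and 1.58% of all genes), and limma-voom 5 and 13 (0.45% and 1.4%). In edgeR it was 16 and 14 without the low-count filter (1.3% and 0.552%) and 0 and 10 with the length correction (0.25% and 0.9%). The covariate for detected genes gave 7 lower with curcumin (1.28%). With curcumin the median was -0.44 and 0 passed without curcumin replicate 1. Without curcumin replicate 2 the median was -1.30 and 24 were called lower (4.82% of all genes). With garlic it ran from -1.02 to -0.67 under the settings run other than the covariate for detected genes, where it was -2.12. Assembly factors had medians of -0.30 with curcumin and -0.21 with garlic against diabetes, and 0 passed in edgeR. At an unadjusted p under 0.05 in edgeR, 5 of them were lower with curcumin (6.71% of all genes) and 2 with garlic (4.03%). Without curcumin replicate 2 edgeR called 3 of them lower with curcumin (4.82%). The lists were not tested against each other.

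**Figure D4:**
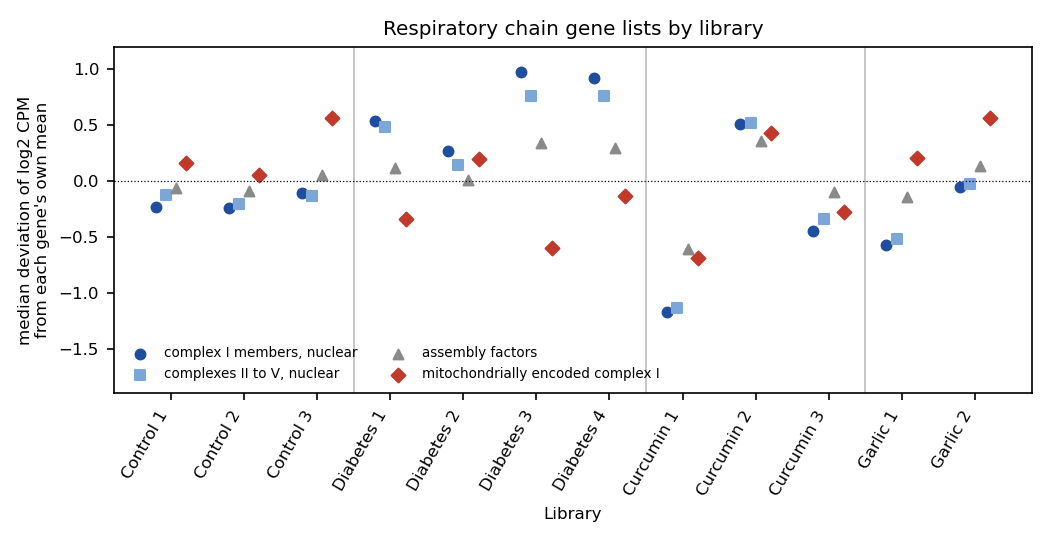
Median deviation of log2 CPM from each gene's own mean, by library, for 4 gene lists: nuclear complex I members (dark blue circles), nuclear genes of complexes II to V (light blue squares), assembly factors (grey triangles) and mitochondrially encoded complex I genes (red diamonds). The first 2 lists lie close together in every library. The red diamonds lie below the dark blue circles in all 4 diabetes libraries and in curcumin replicate 2. The gap is small in diabetes replicate 2 (0.20 against 0.27) and curcumin replicate 2 (0.43 against 0.51).

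Transcript length moved with these differences. Over the 36 subunits, Spearman's rho between annotated transcript length and log2 fold change was -0.295 for diabetes against control, 0.589 for curcumin against diabetes and 0.297 for garlic against diabetes. For curcumin against diabetes it was 0.715 without curcumin replicate 2 and 0.559 without curcumin replicate 1. The subunits share libraries, so the values are descriptions. The 18 shorter subunits had median log2 fold changes of 0.94, -1.14 and -0.995 in the 3 comparisons, and the 18 longer ones 0.63, -0.56 and -0.80. Short genes as a whole differed too. Over all 572 coding genes under 1000 bases at 10 CPM or more, the medians were 0.71, -0.84 and -0.76. They were 0.97, -1.09 and -1.04 for the 22 subunits among them. Over all 4484 such genes of 1000 to 3000 bases the medians were 0.13, -0.15 and -0.14, against 0.63, -0.48 and -0.71 for the 13 subunits among them.

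With a correction for length in the fit, edgeR called 8 members higher in diabetes (0.845% of all genes), 2 lower with curcumin (0.25%) and 10 lower with garlic (0.9%), and the medians were 0.82, -0.64 and -1.01. In curcumin replicate 1, the library lowest for 34 members, genes under 1000 bases had a median deviation of -0.91, and in curcumin replicate 3 of -0.40, against -0.074 to 0.26 in the other libraries. The part of length in the differences of the members beyond this correction was not tested.

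**Figure D5:**
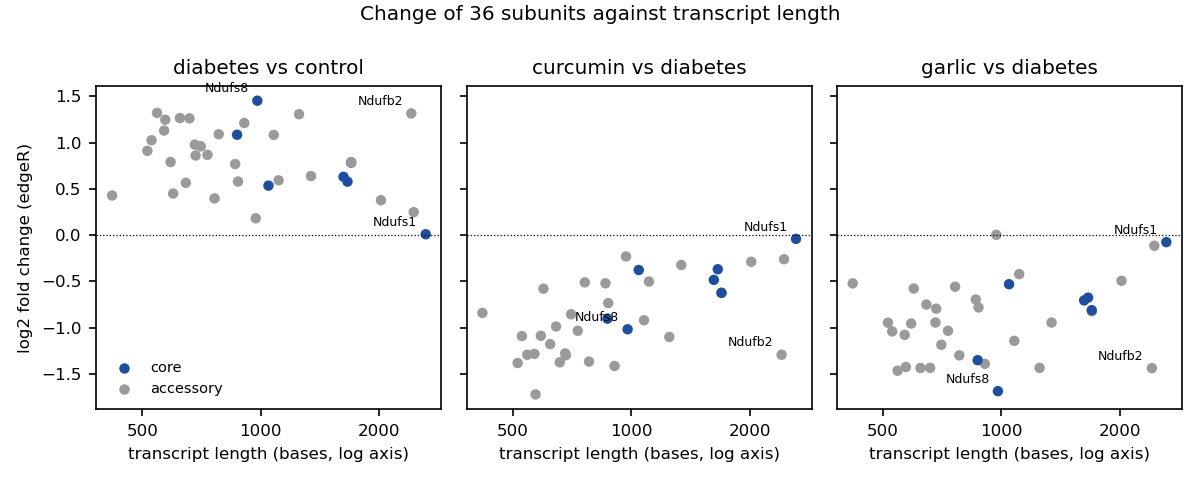
Log2 fold change (edgeR) of the 36 subunits against annotated transcript length in bases on a log axis, for 3 comparisons. Blue points are core subunits and grey points accessory subunits. Shorter subunits lie further from 0 with curcumin (rho 0.589), while Ndufs1, the longest, lies near 0 in all 3 panels.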

How the data were processed

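RNA of mouse hypothalamus was sequenced from 12 stranded poly-A libraries as paired reads of 150 bases, with an RNA integrity number above 7, per the labels' protocols. The authors deposited raw read counts per gene as 1 table. FastQC, featureCounts and the GRCm39 genome are named per the submitters' processing notes; no aligner, annotation release, strand setting or rule for multi-mapping reads is given in the sources used here. Symbols (51486 of 78334 IDs, with 97.8% of the counts) and transcript lengths came from a GENCODE annotation of another build, with the APPRIS principal transcripts where marked. Promoters came from RefSeq (GRCm38.p6).

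Groups were read from the sample titles. Genes were filtered with filterByExpr, which left 25562, and scaled by TMM, and all 12 libraries were fitted in 1 edgeR 4.0.16 model (glmQLFit and glmQLFTest, R 4.3.3) with 6 contrasts, Benjamini-Hochberg adjustment over all genes and a threshold of 0.05. The biological coefficient of variation was 0.808. CPM are relative to the scaled library size, with the SD over libraries. Standard errors are those of the edgeR log2 fold changes. Groups are called separate where every library of one lies beyond every library of the other. The steps were run on simulated counts whose spread between libraries was set well below the common spread of these data. That run therefore cannot show the power or the rate of false calls here.

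Alternatives were DESeq2 1.42.0, limma-voom 3.58.1 with library weights, RLE scaling, no filter, 2 groups only, a replicate block, a covariate for detected genes, an offset for transcript length and each library left out. Leaving out curcumin replicate 2 and diabetes replicate 4 together was chosen after seeing the data. Members and lists were chosen with earlier results of these data known. Members named were the 7 core subunits and, per comparison with diabetes, the 6 highest and 6 lowest fold changes among members of at least 1 CPM, or the 2 highest and 2 lowest in the other comparisons. A few others are named by a count they belong to. 1 member of this rule is not reported here. 2 rows named -ps were left out.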

Additional observations from a re-analysis of the deposited data

How the results depend on the processing

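In diabetes against control the median log2 fold change of the members stayed above 0 and, for both treated groups against diabetes, below 0 under every setting run, each library left out included. The number of members past the threshold did not keep still, and the shares of all genes called are given with these counts above. It was 12, 17 and 13 by DESeq2 for diabetes against control, curcumin against diabetes and garlic against diabetes, and 22, 6 and 15 by limma-voom. Without the filter it was 15, 22 and 14, and with the length correction 8, 2 and 10. It was 14 for diabetes against control with only those groups fitted, and 0 there with RLE scaling or any single library left out. For curcumin against diabetes it was 2 with RLE scaling, 16 with a covariate for detected genes and 24 without both doubted libraries (diabetes replicate 4 and curcumin replicate 2). With the covariate the median was 1.75 for diabetes against control, -2.39 for garlic against diabetes, 0.32 for curcumin against control, -0.65 for garlic against control and 0.95 for curcumin against garlic. With the length correction the median of curcumin against control was 0.21. The median of curcumin against garlic was -0.11 by limma-voom and -0.41 without the doubted libraries. The cause of these shifts was not tested. The fit without the filter tested 50209 genes, and its standard errors were smaller for some members, Ndufa2 with curcumin among them.

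Single genes near 0 changed sign. Ndufs1 in diabetes against control was -0.086 by limma-voom, -0.02 without the filter and -0.029 with 2 groups only, and Ndufb4 was -0.008 with the covariate. Ndufb4 with curcumin against diabetes was 0.26 with the length correction, and with garlic against diabetes it was -0.041 by DESeq2, -0.045 by limma-voom and -0.039 with RLE scaling. Ndufab1 with garlic against diabetes was 0.04 without the doubted libraries. For curcumin against control limma-voom gave -0.20 for Ndufs3 and -0.11 for Ndufv1. Ndufs1 was 0.24 there with the covariate and 0.024 with the length correction. Without the doubted libraries that comparison gave -0.49 for Ndufs3, -0.32 for Ndufs7, -0.39 for Ndufv1 and -0.20 for Ndufv2. For garlic against control Ndufs3 was -0.072 by limma-voom, -0.49 with the covariate and -0.033 with the length correction, and Ndufa4l2 was -1.34 with the covariate. For curcumin against garlic limma-voom gave -0.096 for Ndufs1 and -0.12 for Ndufs3, and Ndufs1 was -0.003 without the filter. The covariate gave 2.00 for Ndufa4l2 and 0.93 for Ndufc2. Without the doubted libraries this comparison gave -0.44 for Ndufs1, -0.51 for Ndufs3, -0.069 for Ndufs7, -0.31 for Ndufv1 and -0.19 for Ndufv2.

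Leaving out 1 library at a time gave these ranges. In diabetes against control Ndufb4 ran from -0.031 to 0.54 and Ndufs1 from -0.13 to 0.095. For curcumin against diabetes 0 to 28 members passed, and the median ran from -1.47 to -0.60, Ndufa10 from -0.70 to 0.026, Ndufab1 from -0.49 to 0.047 and Ndufs1 from -0.46 to 0.19. For garlic against diabetes Ndufa4l2 ran from -1.11 to 0.01, Ndufab1 from -0.25 to 0.01, Ndufb4 from -0.30 to 0.24 and Ndufs1 from -0.32 to 0.12. For curcumin against control 0 to 1 passed, and the median ran from -0.51 to 0.27, Ndufa3 from -1.86 to 0.013, Ndufs1 from -0.51 to 0.20, Ndufs3 from -0.51 to 0.41, Ndufs7 from -0.34 to 0.48, Ndufv1 from -0.41 to 0.44 and Ndufv2 from -0.22 to 0.41. For garlic against control the median ran from -0.39 to 0.13, Ndufb4 from -0.11 to 0.54, Ndufs1 from -0.31 to 0.14, Ndufs3 from -0.053 to 0.11 and Ndufv2 from -0.29 to 0.19. For curcumin against garlic the median ran from -0.44 to 0.39, Ndufa4l2 from -2.96 to 0.022, Ndufs1 from -0.47 to 0.28, Ndufs3 from -0.54 to 0.41, Ndufs7 from -0.095 to 0.75, Ndufv1 from -0.33 to 0.54 and Ndufv2 from -0.21 to 0.45. Where an arm kept 1 library, that library was assumed to vary like the others.

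Same-numbered libraries of different groups had correlations of their deviations from -0.18 to 0.25, against -0.37 to 0.37 for other pairs. Pairs numbered 1 ran from 0.014 to 0.25, pairs numbered 2 from -0.18 to 0.19 and pairs numbered 3 from -0.056 to 0.026. Deviations within such small groups sum to 0, so these ranges are partly built in. They cannot decide whether replicate numbers mark a shared batch. A replicate block gave 0 members past the threshold in all 6 comparisons, medians of 0.78, -0.95 and -0.87 for diabetes against control, curcumin against diabetes and garlic against diabetes, and 2 changes of sign, Ndufab1 at 0.024 with garlic against diabetes and Ndufv2 at 0.03 with garlic against control. Ndufb4, Ndufab1 and Ndufa4l2 had the fewest counts of the coding members.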
